A study of Mus musculus with 8 samples.

Results

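Calb1, Calb2, Pvalb, S100a1 and S100b, 5 genes for EF-hand calcium-binding proteins of the cochlea, were read in the cochlear sensory strip, the organ of Corti, of 16-day-old mice. They were chosen by gene symbol. The array held 10 probe sets for them among 45037 probe sets other than array controls. A probe set was tested where its mean log2 signal lay above the 40th percentile of all probe sets, a signal of 38.7. Of the 10 probe sets 7 passed, and all 5 genes were among the 13221 genes tested of 18193 with a probe set. Calb2 and Pvalb had 1 probe set each, S100a1 and S100b had 2 each, and Calb1 had 4, of which 1 passed.

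The organ of Corti had been dissected from both cochleae of a mouse and parted into an apical and a basal segment, and each segment's RNA went onto 1 array. All mice carried the Atoh1-Cre transgene, whose driver is active in hair cells. The conditional knockout (cKO) was Atoh1-Cre;Dicer1(flox/flox), and the littermate control was Atoh1-Cre;Dicer1(flox/wt), so the control also carried Cre and 1 floxed allele of Dicer1, the gene for the enzyme that makes mature microRNAs. Control apex, control base, cKO apex and cKO base held 2 samples each, from 4 presumed mice. The samples held the whole dissected strip, so RNA of cells other than hair cells was measured with theirs.

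EF-hand proteins bind calcium in a helix-loop-helix pocket. Calbindin (Calb1), calretinin (Calb2) and parvalbumin (Pvalb) are mobile buffers that shape calcium signals near channels and synapses of hair cells and of auditory neurons. The S100 proteins act as dimers, and S100b is a common marker of glia that is also made by cartilage cells and melanocytes, while S100a1 is found in sensory and supporting cells of the inner ear.

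The stretches of 250 bases before the start of S100b and of S100a1 are shown because S100b was the S100 gene whose basal samples all lay above its apical samples, and S100a1 was not. They come from RefSeq on GRCm38.p6 and are written 5′ to 3′ on the strand of the gene. Capitals mark CCAAT boxes (CCAAT, read on both strands, ATTGG being the minus strand form) and E-boxes (CANNTG, both strands). The first lies at chr10:76253586-76253835 on the plus strand and the second at chr3:90514331-90514580 on the minus strand.
S100b: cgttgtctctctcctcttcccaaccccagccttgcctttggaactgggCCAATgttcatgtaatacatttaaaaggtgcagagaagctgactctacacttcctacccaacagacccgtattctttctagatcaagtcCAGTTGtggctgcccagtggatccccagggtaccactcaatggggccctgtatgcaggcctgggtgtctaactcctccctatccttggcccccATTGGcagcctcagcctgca
S100a1: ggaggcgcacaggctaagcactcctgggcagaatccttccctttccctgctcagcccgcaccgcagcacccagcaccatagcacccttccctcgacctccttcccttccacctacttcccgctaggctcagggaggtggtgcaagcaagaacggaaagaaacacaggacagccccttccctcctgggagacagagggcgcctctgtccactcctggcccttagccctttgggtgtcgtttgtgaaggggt
The S100b stretch held 2 CCAAT boxes, the nearer starting 20 bases before the gene, and 1 E-box. The S100a1 stretch held neither motif and no TATAAA. Of the 32851 promoters of the table, 33.8% held a CCAAT box, 66.2% an E-box and 12.4% a TATAAA box, so matches of these short motifs were common. Of the 2 Pvalb starts in the table, 1 had an E-box and the other had none of the 3 motifs. These letters describe the windows only.

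Markers of the dissected strip were present. Of 26 hair cell markers 16 were tested, with the motor myosin Myo7a at a log2 signal of 7.68 to 9.17 and the synaptic protein Otof at 6.97 to 9.26. Slc26a5, the motor protein of outer hair cells, lay under the filter. Sox2, a factor of supporting cells, was at 9.30 to 10.99, the neuronal protein Snap25 at 12.26 to 14.08, the myelin protein Mbp at 14.19 to 14.59, and the cartilage collagen Col2a1 at 12.70 to 14.20. Dct, a pigment enzyme of melanocytes, ran from 5.96 to 13.91. Correlations between log2 values of replicates were 0.9532 to 0.9625 in 3 groups and 0.9448 in control base. Pairs of samples from different groups gave 0.9392 to 0.9617, so replicates were not clearly more alike than other pairs. Xist, transcribed from the inactive X chromosome of females, was at 12.54 and 12.39 in the apical and basal samples of control replicate 1 and at most 8.23 in the other samples. The groups therefore did not have a matched makeup by sex. Median signals ran from 67.0 to 100.1 at a trimmed mean of 500. Dicer1 was at 9.57 and 9.19 in control apex, 9.41 and 9.17 in cKO apex, 9.36 and 9.04 in control base, and 9.30 and 9.06 in cKO base. Where its probes lie relative to the floxed part is not given in the sources used here, so these levels check no label.

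**Figure D1:**
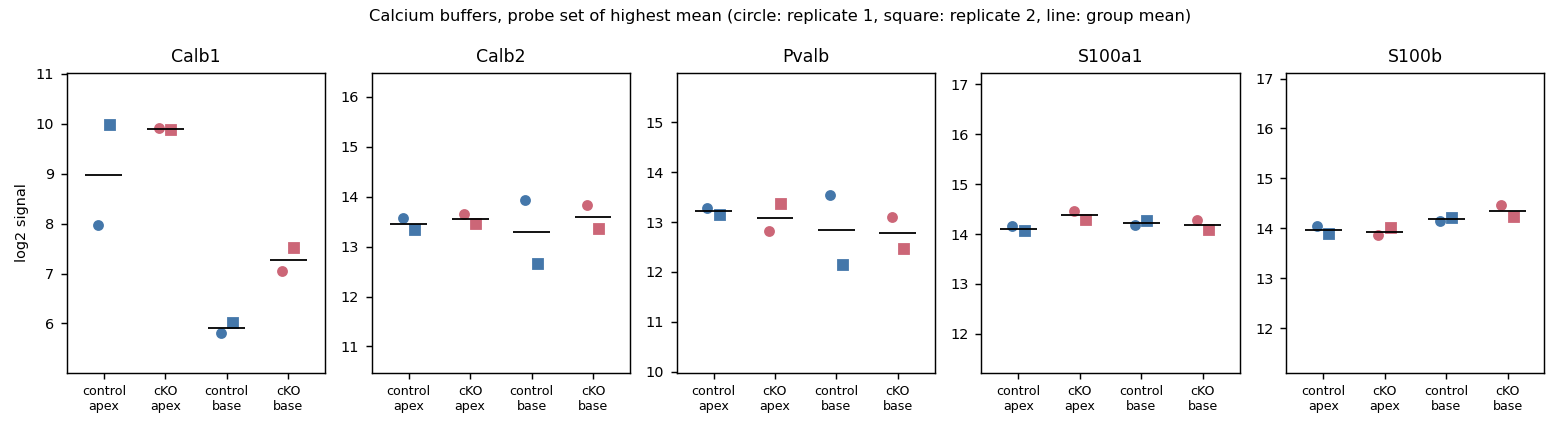
Log2 signal (y axis) of the probe set of highest mean of each of the 5 genes, by group (x axis), with 2 samples a group as points and the group mean as a line; every panel spans the same log2 range. Calb1 is lower in the basal groups, with control apex replicate 1 apart from the other apical samples, and the points of S100a1 and S100b lie close together.

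Calb1 was the calcium buffer that differed by region. Calbindin-D28k, its product, is a fast, high-affinity calcium buffer. The gene (GeneID 12307) lies at chr4:15881264-15906709 on GRCm38.p6. Its tested probe set, 1417504_at, had a log2 signal of 7.97 and 9.97 in control apex, 9.92 and 9.88 in cKO apex, 5.80 and 6.01 in control base, and 7.05 and 7.51 in cKO base. All 4 basal samples lay below all 4 apical samples. Over both genotypes Calb1 was 7.17-fold lower in the base, by a log2 difference of -2.84 ± 0.40 (SE, 95% interval -3.78 to -1.91, limma adjusted p = 0.0299). It ranked 61st by p. It was the only one of the 5 genes called in this comparison, where 1.19% of all genes tested were called in either direction and 0.598% as lower in the base. The 1st and 99th percentiles of all genes were -1.24 and 1.18, so Calb1 lay beyond the lower one.

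Within a genotype the regional difference of Calb1 was of like size and did not pass. It was -3.06 ± 0.57 in controls (8.35-fold, adjusted p = 0.335) and -2.62 ± 0.57 in the cKO (6.16-fold, adjusted p = 0.15), each with 2 samples a region. All 4 presumed mice had less Calb1 signal in the base, with base minus apex of -2.16 and -3.96 in the controls and -2.88 and -2.37 in the cKO. The percentage of all genes called was 0 in controls, where 994 had an unadjusted p under 0.05, and 0.0832 in the cKO. The test over both genotypes lost its call when either cKO apical sample or either cKO basal sample was left out: adjusted p was 0.148 without cKO apex replicate 1, 0.121 without cKO apex replicate 2, 0.157 without cKO base replicate 1 and 0.111 without cKO base replicate 2. Without these samples the estimate itself stayed between -2.96 and -2.73. The call was also lost with no intensity trend, at 0.0534. Within the cKO the difference passed in 1 of 19 other settings, where only the groups compared entered the fit (limma adjusted p = 0.00336). In that setting 449 genes were called in place of 11.

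By group mean, Calb1 ran from 5.91 ± 0.14 (SD, n = 2) in control base through 7.28 ± 0.33 in cKO base and 8.97 ± 1.42 in control apex to 9.90 ± 0.03 in cKO apex. The samples of the last 2 groups overlapped, and those of the other neighbouring groups did not. Control apex replicate 1 stood apart at 7.97, against 9.88 to 9.97 in the other 3 apical samples. Pou4f3, a transcription factor of hair cells, was also lowest of the apical samples there, at 5.86 against 7.73 to 8.55. Other hair cell markers were not low there: Otof had its highest value of all samples, 9.26, and Myo7a was at 8.96. Of the 16 tested hair cell markers, 3 had their highest value of all samples in this sample and 0 their lowest. The summed hair cell markers of that sample, at a log2 of 13.71, lay within the range of the other apical samples, 13.60 to 13.89. The same sample had the high Xist of control replicate 1, at 12.54, and the highest median signal of the series, 100.1. The part of either in its Calb1 level was not tested.

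The 3 Calb1 probe sets under the filter gave lower basal values too, without a test. Probe set 1448738_at was at 5.35 and 6.67 in control apex, 6.77 and 6.81 in cKO apex, 2.91 and 0.92 in control base, and 3.07 and 2.91 in cKO base. Probe set 1456934_at was at 4.57 to 6.54 in the 4 apical and 0.18 to 3.74 in the 4 basal samples. In both of these no basal sample reached an apical one, and control apex replicate 1 was again the lowest apical sample. The weakest probe set, 1458836_at, ran from -0.84 to 4.10, and its regions overlapped. Values this far under the filter's log2 signal of 5.27 are not exact levels. Over the 8 samples, which share region and genotype, the 3 correlated with the tested probe set at r = 0.937, 0.88 and 0.521.

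**Figure D2:**
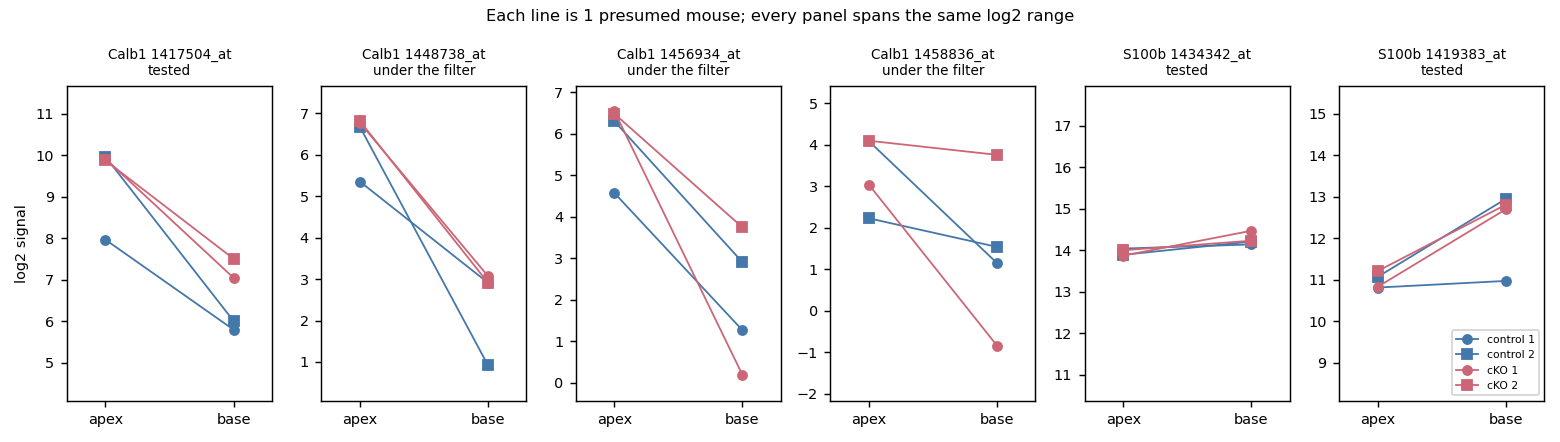
Log2 signal (y axis) in apex and base (x axis) for the 4 Calb1 and the 2 S100b probe sets; each line joins the samples of 1 presumed mouse (blue control, red cKO), and every panel spans the same log2 range. All lines of Calb1 1417504_at run downward, with base minus apex of -3.96 to -2.16, and control mouse 1 stays level in S100b 1419383_at while the other 3 run upward.

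Hair cell markers were also lower in the base. All 16 tested had a negative difference over both genotypes, with a median of -0.98 against -0.0199 over all genes, and 5 of 16 were called lower, against 0.598% of all genes. Their summed log2 signal was 13.60 to 13.89 in the apical samples and 12.72 to 13.25 in the basal ones, without overlap, and correlated with Calb1 at r = 0.748 over the 8 samples. Supporting cell (13 of 17), neuron (17 of 19), myelin (16 of 16) and skeletal muscle markers (6 of 8) were also mostly negative. Of the supporting cell markers 3 were called lower. Melanocyte, cartilage, bone and leukocyte lists had positive medians. Calb1 correlated at r = 0.652 with the myelin sum, 0.558 with supporting cells, 0.236 with neurons and -0.0132 with muscle. With the 30 further EF-hand and calmodulin genes described below its r was 0.871. In tissue RNA, fewer cells of a type and less RNA per cell cannot be told apart. Within the base the hair cell sum was 13.02 and 13.25 in controls and 12.72 and 12.92 in the cKO. The tested Calb1 probe set was higher in both cKO basal samples, a genotype difference that did not pass. The Calb1 probe sets under the filter did not all share its sign. The part of hair cell content in the Calb1 differences was not tested.

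S100b gave higher basal values in both of its probe sets, and neither difference passed. Its gene (GeneID 20203) lies at chr10:76253836-76261319. In the brighter probe set, 1434342_at, log2 signals were 14.04 and 13.89 in control apex, 13.87 and 14 in cKO apex, 14.14 and 14.21 in control base, and 14.47 and 14.23 in cKO base. The 4 basal samples all lay above the 4 apical ones. The difference was small, 0.31 ± 0.09 or 1.24-fold (95% interval 0.11 to 0.51, limma adjusted p = 0.139), and 0.84 with the probe sets of a gene averaged. Groups of 4 and 4 without overlap occurred in 12.4% of all genes, 5.96% higher and 6.4% lower in the base, and in 2 of the 5 buffers, Calb1 and S100b. This probe set's mean was at the 99.8th percentile of the array. By group mean it ran from 13.94 ± 0.09 (SD, n = 2) in cKO apex through 13.97 ± 0.11 in control apex and 14.18 ± 0.05 in control base to 14.35 ± 0.17 in cKO base, and only the apical groups overlapped among neighbours.

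The second S100b probe set, 1419383_at, spread more widely. It was at 10.81 and 11.07 in control apex, 10.83 and 11.21 in cKO apex, 10.97 and 12.95 in control base, and 12.70 and 12.81 in cKO base. Of the basal samples 3 lay above all apical ones, and control base replicate 1 lay within the apical range. Over both genotypes base minus apex was 1.38 ± 0.38 (2.6-fold, adjusted p = 0.175 in the fit over every probe set, where 0.496% of 27022 were called). Without control base replicate 1 it was 1.87, and without control base replicate 2 it was 0.88. Either fit leaves 1 control basal sample, so the spread between these samples no longer enters its standard error. The probe sets of S100b thus had 1.24-fold and 2.6-fold differences for 1 gene, and correlated at r = 0.785.

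Markers of neighbouring tissue moved with S100b. The summed signal of 15 melanocyte and stria vascularis markers was at a log2 of 15.03 and 14.79 in control apex, 14.73 and 14.89 in cKO apex, 14.58 and 15.99 in control base, and 15.99 and 15.85 in cKO base. Control base replicate 1 was thus the lowest of all 8 samples while the other 3 basal samples were the highest. It held the lowest value of 7 of these 15 markers. The sum correlated at r = 0.963 with 1419383_at and 0.794 with 1434342_at. Summed cartilage and limbus markers, 14 in number, ran from 16.21 to 16.70 in the apex and from 16.78 to 17.14 in the base, and correlated with the same probe sets at 0.862 and 0.819. Of them 3 were called higher in the base, against 0.59% of all genes. Summed bone markers, 9 in number, were at 13.93 to 14.43 in the apex and 14.65 to 15.30 in the base, without overlap, and correlated with 1419383_at and 1434342_at at 0.865 and 0.793; 2 of the 9 were called higher. Summed leukocyte and red blood cell markers overlapped between regions and correlated at 0.808 and 0.43. The hair cell sum correlated negatively with S100b, at r = -0.727 with 1419383_at and -0.922 with 1434342_at, the strongest coefficient of that probe set with any marker list. Summed myelin and Schwann cell markers, of a cell type in which S100b is a classical marker, correlated negatively, at r = -0.862 and -0.657. None of the 16 myelin markers tested was called between regions. The part of these tissues and of hair cell content in the S100b signal was not tested.

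**Figure D3:**
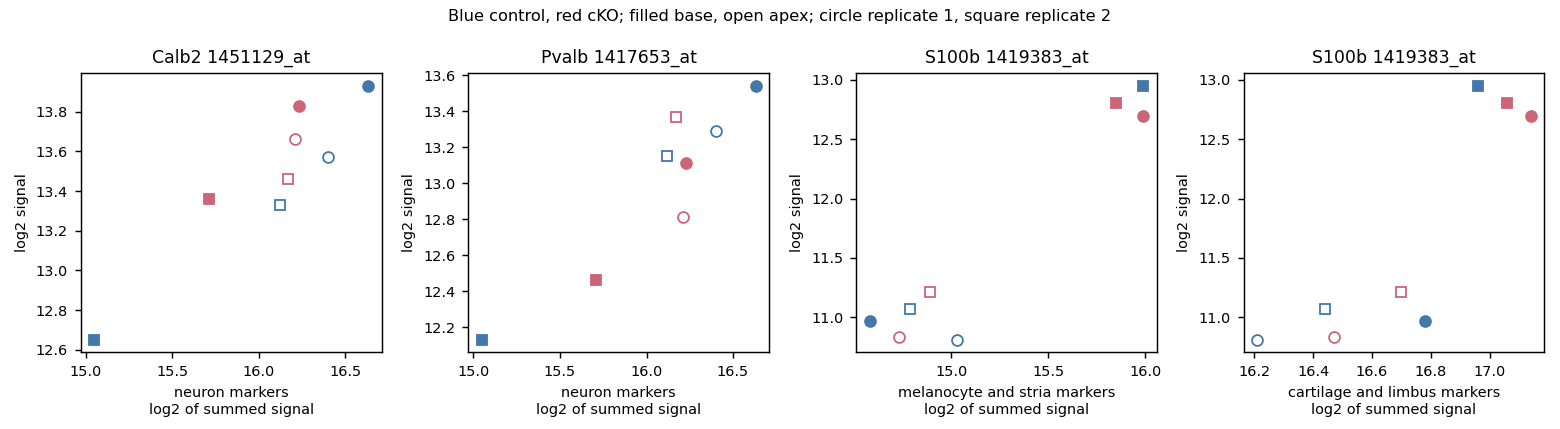
Log2 signal (y axis) of Calb2, Pvalb and S100b probe set 1419383_at against the log2 of the summed signal of a marker list (x axis), with 1 point for each of the 8 samples; blue is control, red cKO, filled base and open apex. Control base replicate 2, the filled blue square, is lowest in both neuronal panels, and control base replicate 1, the filled blue circle, lies among the open apical points in the melanocyte panel.

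Calb2 and Pvalb differed more between the 2 control basal samples than between the mean levels of regions or genotypes, and neither gene passed in any comparison. Calretinin, the product of Calb2, is found in inner hair cells and in many spiral ganglion neurons. Calb2 (GeneID 12308, chr8:110142526-110168212, probe set 1451129_at) was at 13.57 and 13.33 in control apex, 13.66 and 13.46 in cKO apex, 13.93 and 12.65 in control base, and 13.83 and 13.36 in cKO base. Control base held both its highest and its lowest sample. Base minus apex over both genotypes was -0.06 ± 0.27 (95% interval -0.68 to 0.56, adjusted p = 0.931). By group mean Calb2 ran from 13.29 ± 0.91 (SD, n = 2) in control base through 13.45 ± 0.17 in control apex and 13.56 ± 0.14 in cKO apex to 13.60 ± 0.34 in cKO base, and all neighbouring groups overlapped.

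Parvalbumin is a slow-onset buffer of fast-firing neurons and of inner hair cells, and is also abundant in fast skeletal muscle. Pvalb (GeneID 19293, chr15:78191112-78206400, probe set 1417653_at) was at 13.29 and 13.15 in control apex, 12.81 and 13.37 in cKO apex, 13.54 and 12.13 in control base, and 13.11 and 12.46 in cKO base. Again control base held the extremes of the series, with replicate 1 highest and replicate 2 lowest. Base minus apex was -0.34 ± 0.31 (95% interval -1.07 to 0.38, adjusted p = 0.609), and it was 0.25 and -1.01 in the control mice and 0.30 and -0.90 in the cKO mice, so each genotype held 1 mouse of either sign. The group means were 12.79 ± 0.45 (SD, n = 2) in cKO base, 12.84 ± 1.00 in control base, 13.09 ± 0.40 in cKO apex and 13.22 ± 0.10 in control apex, with overlap between all neighbours.

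The summed signal of 19 neuron markers had the same extremes, at a log2 of 16.40 and 16.12 in control apex, 16.21 and 16.17 in cKO apex, 16.63 and 15.05 in control base, and 16.23 and 15.71 in cKO base. Of the 19 markers 15 were lowest in control base replicate 2 and 13 were highest in control base replicate 1. Over the 8 samples the sum correlated at r = 0.923 with Calb2 and 0.926 with Pvalb, and the buffers correlated with each other at 0.771. These points share tissue and dissection, and the coefficients describe them only. The summed skeletal muscle markers tested, 8 of 18, correlated at 0.866 with Calb2 and 0.926 with Pvalb. Their log2 sum was likewise highest in control base replicate 1, at 10.84, and lowest in control base replicate 2, at 9.98. Of the 8 markers 4 were lowest in control base replicate 2 and 3 were highest in control base replicate 1. The defining muscle genes Acta1 and Mylpf were not among these. Acta1 ran from 5.89 in control apex replicate 2 to 7.22 in cKO base replicate 1, above the filter's 5.27 in every sample. Mylpf ran from 5.10 in control apex replicate 1 to 6.23 in cKO base replicate 1. It was at 5.15 and 5.63 in control base. Ckm lay under the filter. The part of neuronal and of muscle content in the spread of Calb2 and Pvalb was not tested.

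Among the brightest probe sets of the 5 genes, that of S100a1 had the smallest range over the 8 samples. The S100a1 gene (GeneID 20193) lies at chr3:90511034-90514330. The brighter probe set, 1419814_s_at, whose suffix marks probes that more than 1 transcript can share, was at 14.16 and 14.06 in control apex, 14.47 and 14.28 in cKO apex, 14.19 and 14.26 in control base, and 14.29 and 14.08 in cKO base. All 8 samples lay within 14.06 to 14.47, and the probe set's mean was at the 99.9th percentile of the array. Base minus apex was -0.04 ± 0.08 (95% interval -0.23 to 0.16, adjusted p = 0.85). The group means were 14.11 ± 0.07 (SD, n = 2) in control apex, 14.19 ± 0.14 in cKO base, 14.22 ± 0.05 in control base and 14.38 ± 0.13 in cKO apex, and the last neighbours alone did not overlap. The dimmer probe set, 1417421_at, ran from 8.63 to 9.33 and gave -0.18 ± 0.21. The 2 probe sets of S100a1 did not follow each other over the samples (r = -0.0409).

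**Figure D4:**
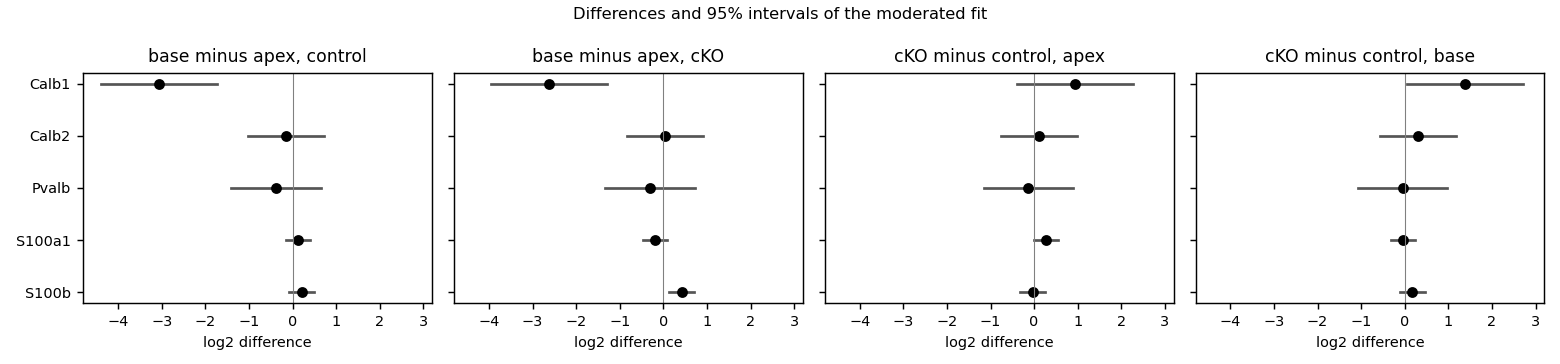
Log2 differences (x axis, points) with 95% intervals of the limma fit (lines) for the 5 genes (y axis) in 4 comparisons of 2 samples against 2. The intervals of Calb1 in base minus apex lie below 0 in both genotypes, that of S100b lies above 0 in the cKO, and those of Calb1 are the widest; none of the differences plotted passed after adjustment.

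Loss of Dicer1 through Atoh1-Cre was compared with control in each region to ask whether the buffers depend on it. None of the 5 genes passed, and neither did any other gene: the percentage called by limma was 0 in the apex, 0 in the base and 0 over both regions, with 290, 413 and 319 of 13221 genes at an unadjusted p under 0.05. The median difference over all genes was 0.000833 in the apex and -0.00154 in the base.

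Calb1 gave the largest genotype differences of the 5. In the base, cKO minus control was 1.37 ± 0.57 or 2.59-fold (95% interval 0.05 to 2.7, unadjusted p = 0.0439, limma adjusted p = 1), with both cKO samples above both controls. In the apex it was 0.93 ± 0.57 (95% interval -0.39 to 2.26, adjusted p = 1) with overlap, and it was -0.07 without control apex replicate 1 and 1.94 without control apex replicate 2. On means per presumed mouse it was 1.15 ± 0.39 (2.23-fold, unadjusted p = 0.0309, adjusted p = 0.999), with 0.60 where control replicate 1 was left out and 1.71 where control replicate 2 was. The effect in the base exceeded that in the apex by 0.44 ± 0.80 (adjusted p = 1), so the regions cannot be said to differ. Calb1 probe sets under the filter gave cKO minus control in the base of 1.07 (1448738_at), -0.12 (1456934_at) and 0.11 (1458836_at), without a test. In each of these the basal samples of the genotypes overlapped. Values this far under the filter are not exact levels.

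The other buffers had narrower or smaller genotype differences. S100a1 gave 0.27 ± 0.12 in the apex (95% interval -0.0037 to 0.54), with both cKO samples above both controls, and -0.04 ± 0.12 in the base. The apical value was 0.058 with quantile normalization, 0.14 with the probe sets of a gene averaged and 0.18 without cKO apex replicate 1. Its dimmer probe set gave 0.01 ± 0.29 in the apex. S100b gave -0.03 ± 0.12 in the apex and 0.17 ± 0.12 in the base (95% interval -0.11 to 0.46), the latter without overlap and between 0.070 (quantile normalization) and 0.48 (probe sets averaged) under other settings. The second S100b probe set, 1419383_at, gave 0.08 ± 0.54 in the apex and 0.80 ± 0.54 in the base, with overlap in both. Calb2 gave 0.11 ± 0.38 and 0.30 ± 0.38, and Pvalb -0.13 ± 0.44 and -0.05 ± 0.44, in apex and base. For Pvalb the intervals, -1.16 to 0.90 and -1.08 to 0.98, reached about 1 log2 unit on either side, so these data set only wide bounds on it. Groups without overlap occurred in 1 of the 5 genes in the apex and 2 of 5 in the base, both as higher in the cKO, where 15% and 13.1% of all genes were higher without overlap and 31.2% and 28.7% were so in either direction.

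Within one genotype, S100b was higher in the base of the cKO by 0.42 ± 0.12 (1.33-fold, unadjusted p = 0.0102, adjusted p = 0.254) and gave 0.21 ± 0.12 in controls. Of the 5 genes, 3 had regions without overlap in controls (Calb1, S100a1 and S100b) and 2 in the cKO (Calb1 and S100b), where 33.9% and 48.8% of all genes did in either direction. No difference of the genotype effects between regions passed for any member, with 0 genes called in all and 149 at an unadjusted p under 0.05.

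Other genes that handle calcium were read from 3 lists. Of 49 further EF-hand proteins and calmodulin partners, 41 had a probe set and 30 were tested. Over both genotypes 11 had a positive and 19 a negative difference, with a median of -0.21 against -0.0199 over all genes, and 1 of 30 was called, as lower in the base, where 1.19% of all genes were called. That gene was Pcp4, a small regulator of calmodulin that itself has no EF-hand. Pcp4 was at 12.13 and 12.34 in control apex, 12.58 and 12.16 in cKO apex, 11.81 and 11.62 in control base, and 10.68 and 10.53 in cKO base. Its regions did not overlap, and it was 2.2-fold lower in the base (-1.14 ± 0.13, adjusted p = 0.0173). In controls alone it was lower by -0.52 ± 0.18, which did not pass (adjusted p = 0.609). It was called in the cKO alone as well, at -1.76 ± 0.18 (adjusted p = 0.0461), and in 8 of 20 other settings there. With the presumed mouse as a block that adjusted p was 0.055. The call over both genotypes was lost without any 1 of the 4 cKO samples or of the 2 control apical samples, with adjusted p of 0.0563 to 0.105.

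Cabp2, a calmodulin-like calcium sensor of hair cell synapses, was at 8.58 and 8.81 in control apex, 8.78 and 8.34 in cKO apex, 8.32 and 8.22 in control base, and 6.41 and 7.16 in cKO base. The cKO basal samples were the lowest. Its regional difference over both genotypes was -1.10 ± 0.21 (adjusted p = 0.0617), and cKO minus control in the base was -1.49 ± 0.30 (adjusted p = 1), so neither passed. Kcnip4, an EF-hand partner of potassium channels, gave -2.09 ± 0.44 in controls (adjusted p = 0.349). In the apex, Caln1, a calneuron, gave 1.12 ± 0.54 and Cabp7 gave -0.40 ± 0.23 between genotypes, both at an adjusted p of 1. Leaving out a sample moved these to between 0.42 and 1.82 and to between -0.71 and -0.09. Ocm, the parvalbumin of outer hair cells, was not analysed here.

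Of 33 pumps, exchangers and store proteins, 31 had a probe set and 27 were tested, with 13 positive and 14 negative regional differences and a median of -0.0223. The only one of the 27 called, against 1.19% of all genes, was Slc8a3, a sodium-calcium exchanger, which was higher in the base. Slc8a3 was at 8.43 and 8.07 in control apex, 8.31 and 8.51 in cKO apex, 9.19 and 11.03 in control base, and 10.74 and 10.63 in cKO base, 4.2-fold higher (2.07 ± 0.36, adjusted p = 0.0496). Like S100b 1419383_at, it was lowest of the basal samples in control base replicate 1. Its call lay at the threshold and was lost with no filter (adjusted p = 0.0586), with quantile normalization (0.0508), with centring on the 75th percentile (0.0505), with no trend (0.0769), with every probe set (0.0681), and without any 1 of the 4 cKO or 2 control apical samples (0.132 to 0.209). Atp2b2, the calcium pump of the hair bundle, gave -0.56 ± 0.29 (adjusted p = 0.374), and was lowest in control base replicate 2, at 10.20 against 10.69 to 11.67 elsewhere. Atp2b1, the pump of the basolateral membrane, gave -0.75 ± 0.21 in controls, and the store-operated channel Orai1 gave 0.79 ± 0.20 in the cKO, at adjusted p of 0.514 and 0.194. With probe sets averaged Atp2b1 gave -0.39.

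Of 27 calcium entry genes, 24 had a probe set and 21 were tested, with 4 positive and 17 negative regional differences and a median of -0.39. The only one of the 21 called, against 1.19% of all genes, was Chrna9, a subunit of the acetylcholine receptor through which efferent fibres act on outer hair cells. It was at 7.26 and 7.92 in control apex, 7.88 and 7.73 in cKO apex, 4.16 and 5.47 in control base, and 3.29 and 4.98 in cKO base, so its basal mean lay under the filter. It was at least 5.37-fold lower in the base (adjusted p = 0.0299), and the call was lost without any 1 of the 4 cKO or 2 control apical samples (adjusted p 0.0702 to 0.148). Cacna1d, the channel of hair cell synapses, gave -0.60 ± 0.15 (adjusted p = 0.114), and cKO minus control in the apex of 0.56 ± 0.22 (adjusted p = 1). With the probe sets of a gene averaged these were -0.28 and 0.15. Tmc1, of the transduction channel, gave -1.17 ± 0.39 between genotypes in the base, where its cKO mean lay under the filter, at least 1.33-fold lower (adjusted p = 1). No gene tested of the 3 lists was called between genotypes in either region.

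**Figure D5:**
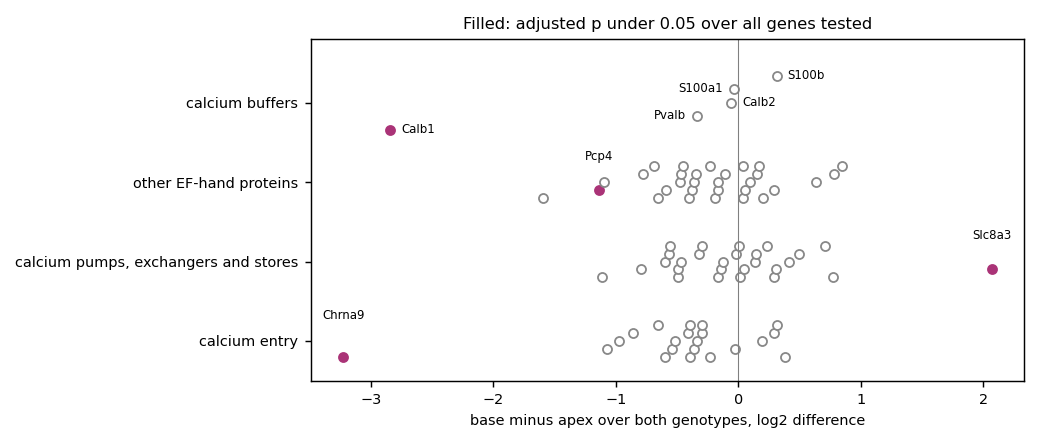
Base minus apex over both genotypes as a log2 difference (x axis) for every tested gene of the 5 buffers and of 3 lists of calcium genes (y axis, points spread vertically for display only); filled points passed an adjusted p of 0.05. The filled points are Calb1, Pcp4, Slc8a3 and Chrna9, whose basal mean lay under the filter so that its plotted value of -3.23 is not an exact size.

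The genes whose log2 values over the 8 samples were most like each buffer were named by Pearson's r alone. Calb1 was nearest to Rasd2 (r = 0.996), Gata2 (0.98) and Fam204a (0.979). Calb2 was nearest to Cpeb3 (0.992), Dnm1 (0.99) and Oip5os1 (0.985), and Pvalb to Uchl1 (0.985), which is in the list of neuron markers, Kif3a (0.984) and Syndig1 (0.976). S100a1 was nearest to Suds3 (0.971), Skp1 (0.961) and Adat3 (0.928), and S100b 1434342_at to Dgke (0.968), Slc66a2 (0.962) and Coq10a (0.957). These are the highest of 13220 coefficients for each buffer over samples that share regions and presumed mice. Among the brightest probe sets of the 5 buffers, Calb1 and S100b 1434342_at had the most negative r, at -0.733, and over all tested probe sets of different buffers Calb2 and S100a1 1417421_at had, at -0.762.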

How the data were processed

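Gene expression in 8 samples was read from deposited MAS5 signals, in which the authors give 1 linear intensity for each probe set. The mean of each array, trimmed by 2% at each end, is 500. MAS5 and affy 1.26 are the tools in the submitters' processing notes. Per the labels' protocols, labelling took 2 cycles of amplification from 75 to 125 ng of RNA. No detection calls were used.

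Values were taken to log2 as deposited, without a pseudocount or another normalization. Of 45101 probe sets, 34945 were paired with 1 gene by the platform annotation, 932 with several and 9160 with none listed; symbols were updated by Entrez identifier for 34741. A gene was read from its probe set of highest mean log2 value. A model of 4 group means was fitted with limma 3.58.1 (R 4.3.3) to all 8 samples, with an intensity trend (4 residual and 3.46 prior degrees of freedom). Genotype over both regions used means per presumed mouse (2 and 3.1). Tests were two-sided, adjusted by Benjamini-Hochberg over all genes tested at a threshold of 0.05, and the number of arrays limits their precision. Where a low group's mean lay under the filter, a fold sets the other group's mean against the filter's signal and leaves out sampling error.

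Groups and replicate numbers came from the sample titles. The series' design ties a replicate to 1 mouse, so apex and base of the same genotype and number were taken as 1 mouse. Deviations from group means correlated across genes between such samples at r = 0.339 in controls and 0.0683 in the cKO; across genotypes the number is only shared. With the presumed mouse as a block, the regional difference of Calb1 over both genotypes had an adjusted p of 0.0204, and 255 genes were called in place of 157.

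The members and gene lists were chosen with earlier results of these data known. Named genes were all members, Cabp2, Atp2b2, Cacna1d and Dicer1, list members past the threshold up to 4 in a comparison (otherwise the 2 of smallest p, of which some are given), defining cell type markers, and 3 genes most like each member. Xist was added after its values were seen. Alternatives covered the filter, pseudocount, scaling, trend, probe set choice, samples fitted, block, and each sample left out. On simulated data with 13221 genes, the fit of base minus apex over both genotypes gave 8 false calls. It recovered 57.8% of genes changed by a log2 of 1 and 89.8% of those changed by 2. These shares describe the simulated data only.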

Additional observations from a re-analysis of the deposited data

Results flagged for a closer look

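S100a1 drew attention because its base minus apex difference was positive in both control mice, at 0.03 and 0.20, and negative in both cKO mice, at -0.18 and -0.20. The difference of the genotype effect between regions was -0.31 ± 0.17 on the log2 scale (unadjusted p = 0.105, limma adjusted p = 1), so it did not pass. The second S100a1 probe set gave -0.20 ± 0.41 for the same difference.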

How the results depend on the processing

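The regional difference of Calb1 over both genotypes kept its sign in all 18 settings that gave a value and was called in 13, with estimates of -3.34 to -2.34 when a sample was left out. With no intensity trend its adjusted p was 0.0534, and with probe sets averaged per gene, Calb1 lay under the filter. With 2 samples a group the intervals are wide, and values under the filter's log2 signal of 5.27 are not exact levels. The cause of each change below was not tested.

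Counts of genes called moved as follows. In the cKO base against apex (11 genes) the count was 0 with no filter, quantile normalization, 75th percentile centring, no trend or every probe set, 6 with the mean of probe sets and 449 with only the groups compared. Over both genotypes (157) it was 70 with no trend and 98 with the mean of probe sets. With no trend 1 gene was called for genotype in the apex and 1 in the base. With the presumed mouse as a replicate block the counts were 0 in the cKO and 255 over both genotypes, and as a random block 81 and 527. The block changed no call of a member. Leaving out a sample gave 0 to 37 genes for genotype in the base, 0 to 9 for genotype over both regions, 0 to 551 for region in controls, 0 to 316 in the cKO and 0 to 1518 over both genotypes.

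Signs turned where differences lay near 0. For cKO minus control in the apex, quantile normalization gave Calb2 -0.011, 75th percentile centring S100b 0.010, and the mean of probe sets S100b 0.023 and Atp2b2 -0.16. In the base, centring gave S100a1 0.0020 and Dicer1 0.019, and quantile normalization Dicer1 0.0089. Over both regions, quantile normalization gave S100a1 -0.050 and S100b -0.052, and the mean of probe sets Atp2b2 -0.058. For the difference of effects the mean of probe sets gave Atp2b2 0.21 and Cacna1d 0.011.

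Leaving out a sample turned further signs. For genotype in the apex the ranges were -0.067 to 1.94 for Calb1, -0.0095 to 0.23 for Calb2, -0.41 to 0.15 for Pvalb, -0.11 to 0.045 for S100b, -0.36 to 0.083 for Cabp2, -0.28 to 0.098 for Dicer1, -0.22 to 0.23 for S100a1 1417421_at and -0.11 to 0.27 for S100b 1419383_at. In the base they were -0.34 to 0.94 for Calb2, -0.75 to 0.65 for Pvalb, -0.14 to 0.065 for S100a1, -0.65 to 0.75 for Atp2b2, -0.18 to 0.14 for Dicer1, -0.54 to 0.16 for S100a1 1417421_at and -0.19 to 1.79 for S100b 1419383_at. Over both regions they were -0.17 to 0.59 for Calb2, -0.48 to 0.30 for Pvalb, -0.23 to 0.53 for Atp2b2, -0.38 to 0.20 for S100a1 1417421_at and -0.12 to 1.00 for S100b 1419383_at. For base minus apex in controls they were -0.80 to 0.49 for Calb2, -1.08 to 0.32 for Pvalb, -1.16 to 0.23 for Atp2b2 and -0.43 to 0.27 for S100a1 1417421_at. In the cKO they were -0.20 to 0.28 for Calb2 and -0.62 to 0.019 for Pvalb. Over both genotypes they were -0.38 to 0.26 for Calb2, -0.69 to 0.010 for Pvalb and -0.087 to 0.014 for S100a1. For the difference of effects they were -0.56 to 1.44 for Calb1, -0.45 to 0.83 for Calb2, -0.63 to 0.78 for Pvalb, -0.89 to 0.50 for Atp2b2, -0.55 to 0.15 for S100a1 1417421_at and -0.27 to 1.71 for S100b 1419383_at.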
